A study of Hebeloma cylindrosporum with 4 samples.

Results

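In ectomycorrhizas of the fungus Hebeloma cylindrosporum, 162 gene models that were abundant in the free-living mycelium were at least 10-fold lower than in the mycelium. They were chosen by the measured values themselves, from 15382 gene models in all. RPKM, the reads of a gene model scaled to its transcript length and to the library's gene reads, had to be 50 or more in both mycelium libraries. The lower mycelium value had to be at least 10 times the higher of the 2 ectomycorrhiza values, and this ratio, mycelium over ectomycorrhiza, is called the fold below. At least 1 ectomycorrhiza read was required, and at least 50% of the reads of the gene model over the 4 libraries had to be unique to it. The contrast between ectomycorrhiza and mycelium therefore defines these gene models, and their difference between the tissues is given below as a description. Calls and fitted values of the count model are printed for them without being read as evidence.

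The ectomycorrhizas (2 libraries) were mycorrhizal roots of maritime pine, Pinus pinaster, grown in a greenhouse. Seedlings were 20 days old when their tap roots were dipped into a homogenate of the fungus, and grew in pots of 0.5 l with a sterilized peat and clay soil of 80% organic matter. The free-living mycelium (2 libraries) was a 6-day-old pure culture on agar of the Melin-Norkrans medium with fructose added at 0.5 g per litre, grown on cellophane. The labels describe the strain, TV98 IV3, as wild type and diploid and name it for the whole work, but tag it only on the mycelium samples. The groups differ at least in host, substrate with its carbon supply, and growth site together, and these cannot be told apart. No age at harvest is given here for the ectomycorrhizas, so age may differ as well. The labels call the 2 libraries of a group biological replicates and do not name the plants, pots or cultures behind them.

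An ectomycorrhiza is a joint organ. Hyphae form a sheath around a fine root and grow between its outer cells, where the fungus passes mineral nutrients and water to the tree and takes up sugars. In pure culture the same fungus takes its carbon from the medium and meets no plant cell. The deposited tables identify gene models by protein number of the Hebcy2 annotation and pair none of them with a product, so no role, pathway or sequence is given to any member. For the same reason neither tissue could be checked against marker genes. Here 2 gene models are named by number, and the others are called by their rank in mean mycelium RPKM among the 162 and by their transcript length.

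The ectomycorrhiza libraries held 4748150 and 3967725 gene reads, and the mycelium libraries 17774509 and 19341938. For a transcript of 1 kb, 1 read was worth 0.211 and 0.252 RPKM in ectomycorrhiza and 0.0563 and 0.0517 RPKM in mycelium. RPKM is relative to each library's gene reads. In such bulk samples fewer cells that express a gene and less RNA per cell cannot be told apart.

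The 162 gene models made up 6.14% of the 2637 that reached 50 RPKM in both mycelium libraries. They held 0.256% (0.252 to 0.261) and 0.226% (0.221 to 0.230) of the reads in the ectomycorrhiza libraries, against 8.36% (8.35 to 8.37) and 7.76% (7.75 to 7.77) in the mycelium libraries. The ranges in brackets are exact binomial intervals at 95% and cover counting error only. The abundant mycelium gene models as a whole held 66.6% and 64.8% of the ectomycorrhiza reads and 70.8% and 74.0% of the mycelium reads. The read shares of the 162 are fixed in direction by how they were picked, and their size shows how much of the mycelium transcriptome the set covers.

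**Figure D1:**
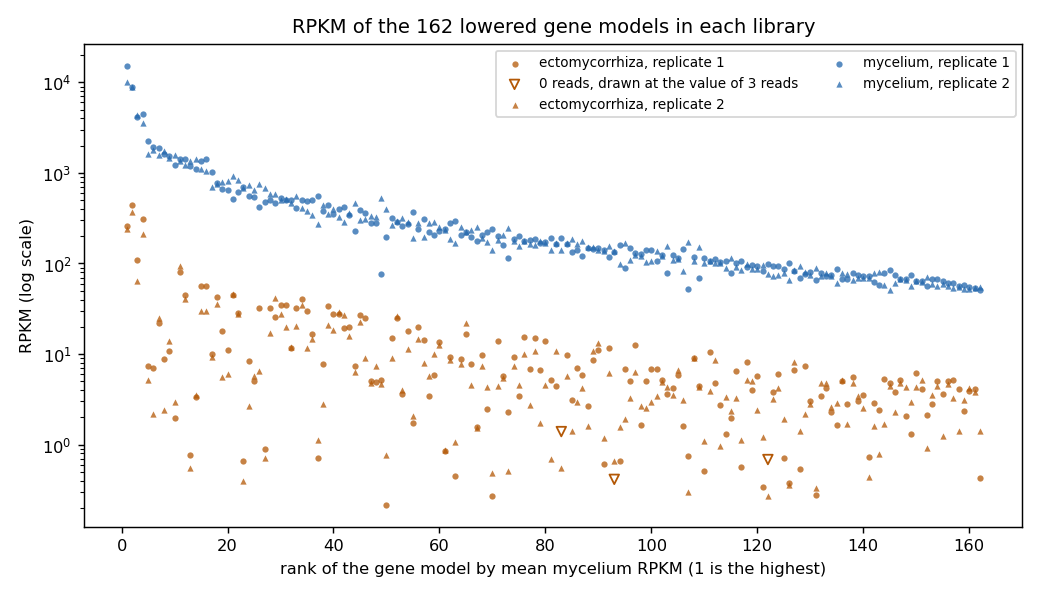
RPKM (log scale) of each of the 162 gene models in the 2 ectomycorrhiza libraries (orange) and the 2 mycelium libraries (blue), ordered by mean mycelium RPKM, with circles for replicate 1 and triangles for replicate 2. Ordering by mycelium level puts the mycelium values, 50.3 to 15197 RPKM, in a narrower band by construction. The ectomycorrhiza values scatter widely among gene models of like rank, from 0.546 to 93.9 RPKM between ranks 10 and 16. Open triangles mark 3 values with 0 reads, drawn at the value of 3 reads.

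All 162 passed the read filter of the count test, which their mycelium reads alone, at least 357 and 382, were enough to meet. In the ectomycorrhiza libraries 34 and 61 of them had fewer than 10 reads. EdgeR's quasi-likelihood test with Benjamini-Hochberg adjustment called 162 of 162 lower in ectomycorrhiza at an adjusted p under 0.05, beside 27.5% of all 11471 gene models tested and 26.2% of the abundant mycelium gene models. These shares hold for TMM scaling; with total counts alone, the scaling that RPKM uses, 6405 of the 11471 were called lower, against 3153 with TMM. Nothing is read from the members' count, since the same libraries chose the members. Likewise the 2 groups do not overlap in any member by construction, while 58.6% of all 15382 gene models had both ectomycorrhiza RPKM values under both mycelium values. The median fitted log2 fold change, ectomycorrhiza over mycelium, was -3.83 over the members and -0.20 over all gene models tested.

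How the libraries are scaled decides how many pass a 10-fold limit. RPKM is scaled by total reads alone. TMM scaling, which sets libraries against each other by the bulk of gene models, gave factors of 0.683 and 0.755 for the ectomycorrhiza libraries and 1.47 and 1.32 for the mycelium libraries. After it, 82 of the 162 were still at least 10-fold lower by the same comparison of extremes, 157 were at least 5-fold lower, and the smallest fold was 4.71. The median fold of the 162, lower mycelium over higher ectomycorrhiza value, was 10.03 after TMM scaling and 20.2 by RPKM.

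**Figure D2:**
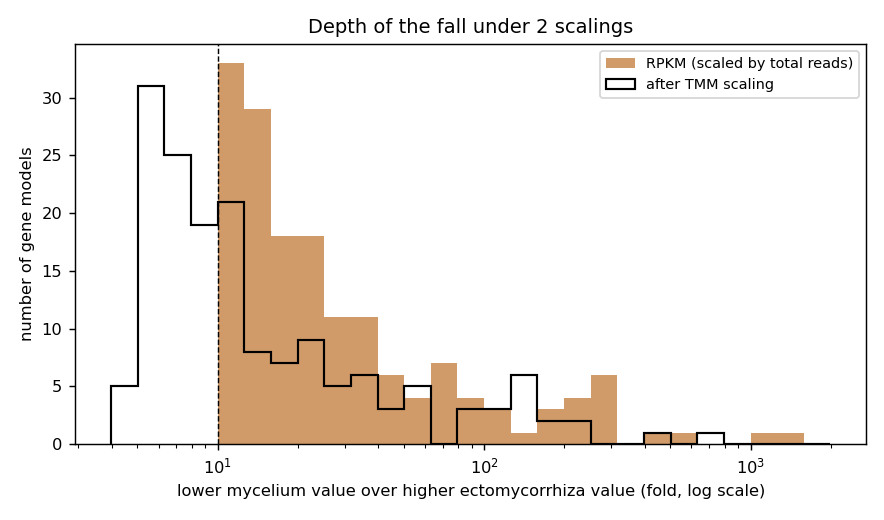
Number of gene models (vertical axis) by fold, the lower mycelium value over the higher ectomycorrhiza value (log scale), for RPKM (filled) and for the same values after TMM scaling (line). The dashed line marks the limit of 10; by RPKM all 162 lie above it by choice, and after TMM scaling 82 do.

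The most abundant members were among the leading transcripts of the mycelium. Of the 10 gene models with the highest mean mycelium RPKM, 2 were members, of the highest 50, 14, and of the highest 100, 17. None of the 162 was among the 100 highest in ectomycorrhiza, and 3 were among the highest 500. The rule's 10-fold limit holds their ectomycorrhiza values down, so these low ranks follow partly from the choice. By summed mean RPKM, 10 of the 162 held 50% of the members' mycelium level.

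Gene model 444027, with a transcript of 1185 bp, was the highest member in mycelium and the fifth of all gene models there. It had 259 and 239 RPKM in the ectomycorrhiza libraries (1458 and 1125 reads), against 15197 and 10197 RPKM in the mycelium libraries (320086 and 233713 reads). Its ectomycorrhiza mean was 249 ± 14.0 RPKM and its mycelium mean 12697 ± 3535 RPKM (SD, n = 2 each). The mycelium values differed by 1.49-fold and the ectomycorrhiza values were closer, and both ectomycorrhiza values lay far under both mycelium values. Pooled reads, scaled by total gene reads, gave a 50.3-fold lower level (exact 95% counting interval 48.4 to 52.4). This interval covers counting error only, not the spread between libraries or the choice of scaling. The fold of 444027, lower mycelium over higher ectomycorrhiza value, was 39.4 by RPKM and 20.4 after TMM scaling. The fitted log2 fold change, which uses TMM scaling, was -4.70 (SE 0.32, derived from the edgeR F statistic). By mean RPKM 444027 ranked 493 of all gene models in ectomycorrhiza.

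The second member by mycelium level (1128 bp) was steadier between cultures. It had 439 and 366 RPKM in ectomycorrhiza and 8953 and 8932 RPKM in mycelium, and ranked 279 in ectomycorrhiza, the highest of the 162 there. Its fold, 20.3 by RPKM, was 9.50 after TMM scaling.

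The third (441 bp) had 109 and 63.4 RPKM in ectomycorrhiza and 4163 and 4400 RPKM in mycelium. The fourth (654 bp) had 309 and 212 RPKM in ectomycorrhiza and 4490 and 3594 RPKM in mycelium. These 4 leading members together took 41.1% and 38.3% of all member reads in ectomycorrhiza and 39.3% and 34.1% in mycelium. The other 158 held 0.145% ± 0.0083 of the ectomycorrhiza reads and 5.10% ± 0.032 of the mycelium reads (SD, n = 2 each), so most of the mycelium share lay outside the leading 4.

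Below the first 4, members of like mycelium level separated widely in ectomycorrhiza. In all, 16 members averaged 1000 RPKM or more in mycelium. Of these, 6 were under 10 RPKM in both ectomycorrhiza libraries, 1 lay between 10 and 20, and 9 were above 20 in both. The fifth member (485 bp) had 7.38 and 5.20 RPKM in ectomycorrhiza and 2274 and 1629 RPKM in mycelium. The sixth (804 bp) had 7.07 and 2.19 RPKM in ectomycorrhiza and 1922 and 1792 RPKM in mycelium. By contrast the eleventh (1638 bp) kept 81.1 and 93.9 RPKM in ectomycorrhiza, against 1436 and 1365 RPKM in mycelium. Its ectomycorrhiza values were above those of the fifth and sixth in both libraries, although its mycelium values were lower. It was one of 5 members that stayed at 50 RPKM or more in both ectomycorrhiza libraries, the others being the first 4. The seventh (1447 bp) had 21.8 and 25.3 RPKM in ectomycorrhiza and 1882 and 1587 RPKM in mycelium. The eighth (624 bp) had 8.78 and 2.42 RPKM in ectomycorrhiza and 1611 and 1765 RPKM in mycelium. The twelfth (817 bp) had 45.4 and 40.1 RPKM in ectomycorrhiza and 1428 and 1214 RPKM in mycelium. Their folds were 62.9, 184 and 26.8, so neighbours in mycelium rank were lowered to very different depths.

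A pair of short members had nearly the same profile. The fifteenth (512 bp) had 56.8 and 29.5 RPKM in ectomycorrhiza, from 138 and 60 reads, and 1372 and 1112 RPKM in mycelium. The sixteenth (509 bp) had 57.1 and 30.2 RPKM in ectomycorrhiza, from 138 and 61 reads, and 1425 and 1044 RPKM in mycelium. In both, replicate 1 was above replicate 2 in each tissue. In ectomycorrhiza this also held for 32 of 38 members and 91.1% of all abundant gene models under 600 bp, so it is not particular to the pair. Which of the pair was higher differed between the mycelium libraries. The pair was singled out after its values were seen, and whether the transcripts are related in sequence is not known from these tables, which count all reads of both as unique.

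**Figure D3:**
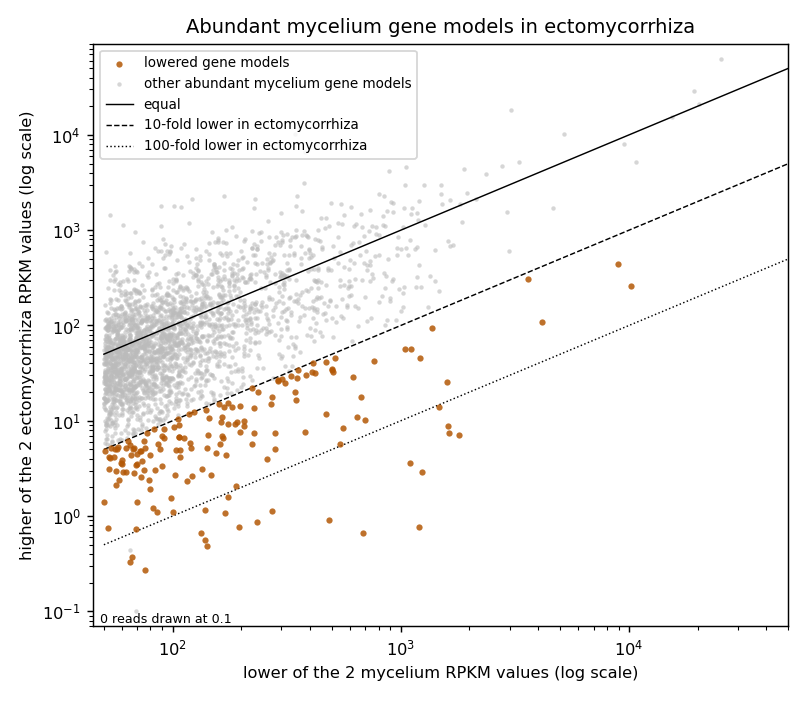
Each of the 2637 abundant mycelium gene models by its lower mycelium RPKM (horizontal, log scale) and its higher ectomycorrhiza RPKM (vertical, log scale), with the 162 members in orange and lines at equal, 10-fold lower and 100-fold lower levels. Members lie on or under the dashed line by choice, and 21 of them lie under the dotted 100-fold line.

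By RPKM, 80 members were 10-fold to under 20-fold lower, 46 were 20-fold to under 50-fold, 15 were 50-fold to under 100-fold, and 21 were at least 100-fold lower. Of the 21, 7 averaged 1000 RPKM or more in mycelium, and the lowest averaged 76.8 RPKM. Median ectomycorrhiza levels in these 4 classes were 7.64, 4.07, 2.14 and 0.81 RPKM, and median mycelium levels were 133, 164, 279 and 296 RPKM. The deeper classes were thus lower in ectomycorrhiza and higher in mycelium at the median, which the fold itself partly fixes. Across the 162, fold and mean mycelium RPKM had a Spearman rho of 0.245, and the 2 share the mycelium libraries.

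Gene model 381186 (1384 bp) had the largest fold of all members. It had 0.761 and 0.546 RPKM in ectomycorrhiza, from 5 and 3 reads, against 1201 and 1348 RPKM in mycelium, from 29539 and 36072 reads. Its ectomycorrhiza mean was 0.654 ± 0.152 RPKM and its mycelium mean 1274 ± 104 RPKM (SD, n = 2 each). By mean RPKM it ranked 10507 in ectomycorrhiza and 48 in mycelium. The lower mycelium value was 1578 times the higher ectomycorrhiza value. Pooled reads, scaled by total gene reads, gave 1926-fold, with a counting interval of 977 to 4461. This wide range covers counting error under that scaling only. After TMM scaling the lower mycelium value was 736 times the higher ectomycorrhiza value. The fitted log2 fold change, which uses TMM scaling, was -9.95 (SE 0.39, derived from the edgeR F statistic).

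Others came near it. The member at rank 23 (639 bp) had 0.659 and 0.394 RPKM in ectomycorrhiza, from 2 and 1 reads, and 705 and 681 RPKM in mycelium, a pooled fold of 1286 (440 to 6237). The member at rank 27 (702 bp) had 0.900 and 0.718 RPKM in ectomycorrhiza, from 3 and 2 reads, and 482 and 675 RPKM in mycelium, a pooled fold of 713 (306 to 2197). These intervals overlap one another and that of 381186. They also overlap those of members of 924 bp and 454 bp, with pooled folds of 698 (125 to 27593) and 654 (117 to 25831). The reads therefore fix neither the order of the deepest falls nor which members they are. Better measured are the tenth member (1809 bp), with 1.98 and 2.93 RPKM in ectomycorrhiza and 1234 and 1592 RPKM in mycelium, and the fourteenth (1130 bp), with 3.35 and 3.57 RPKM in ectomycorrhiza and 1093 and 1432 RPKM in mycelium. Their pooled folds were 589 (429 to 833) and 368 (263 to 531). The ninth (1750 bp), at 10.7 and 13.8 RPKM in ectomycorrhiza and 1541 and 1465 RPKM in mycelium, had the most ectomycorrhiza reads of the 21, 89 and 96, with a pooled fold of 124 (107 to 144).

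Depth in ectomycorrhiza limited most of these values. The median member had 23 and 15.5 reads in the ectomycorrhiza libraries and 2824.5 and 3043 reads in the mycelium libraries. In ectomycorrhiza, 34 and 61 members had fewer than 10 reads, and 12 of the 21 deepest had fewer than 10 in both libraries together. In ectomycorrhiza replicate 1, 3 members had 0 reads. A limit of 3 reads allows them up to 1.39 RPKM (454 bp, 0.555 RPKM in replicate 2), 0.413 RPKM (1530 bp, 0.659 RPKM in replicate 2) and 0.684 RPKM (924 bp, 0.273 RPKM in replicate 2). In mycelium the same gene models had 194 and 139, 134 and 138, and 98.8 and 75.6 RPKM. At the other end, 12 of the 162 had a counting interval of their pooled fold that reached under 10. The fold of the rule takes the extremes and is smaller than the pooled fold, and its own counting error was not computed. The member at rank 34 (997 bp) had a fold of 10.1 by the rule and a pooled interval of 10.7 to 13.3. The 12 are therefore not all members that may lie within counting error of the limit.

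In ectomycorrhiza the members did not form one low class. Replicate 1 had a median member level of 5.27 RPKM and a median over all gene models of 4.32 RPKM, and replicate 2 had 4.41 and 4.58 RPKM. Of the 162, 71 were above the median gene model in both ectomycorrhiza libraries and 59 were under it in both. In total 13 members were under 1 RPKM in both libraries and 65 were under 5 RPKM. The median member level in mycelium was 162 and 167 RPKM, against 12.6 and 11.3 RPKM over all gene models. The median member was thus close to the median gene model in ectomycorrhiza and over 10 times above it in mycelium, where the limit of 50 RPKM sets it high. Over all abundant gene models the medians were 59.6 and 56.2 RPKM in ectomycorrhiza and 101 and 95.2 RPKM in mycelium. Across the 162, log2 mean RPKM in ectomycorrhiza and in mycelium had a Pearson r of 0.587, a value over gene models in 2 groups of libraries that the 10-fold limit also shapes.

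The share of abundant gene models that were lowered 10-fold was larger at higher mycelium levels. It was 3.66% (49 of 1339) at a mean of 50 to under 100 RPKM, 6.26% (46 of 735) at 100 to under 200, 9.76% (36 of 369) at 200 to under 500, 13.2% (15 of 114) at 500 to under 1000, and 20.0% (16 of 80) at 1000 or more. With the 10-fold limit applied to the members after TMM scaling, the shares were 1.57%, 3.13%, 4.88%, 7.02% and 15.0% in the same order of classes. Without ectomycorrhiza replicate 1 they were 6.57%, 8.98%, 13.3%, 17.5% and 25%, and without replicate 2 they were 4.33%, 6.39%, 10.03%, 13.2% and 20.0%. The order of the classes was the same each time. The level that ranks the gene models is also the numerator of the fold, so these shares are no independent measure, and the trend was not tested.

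**Figure D4:**
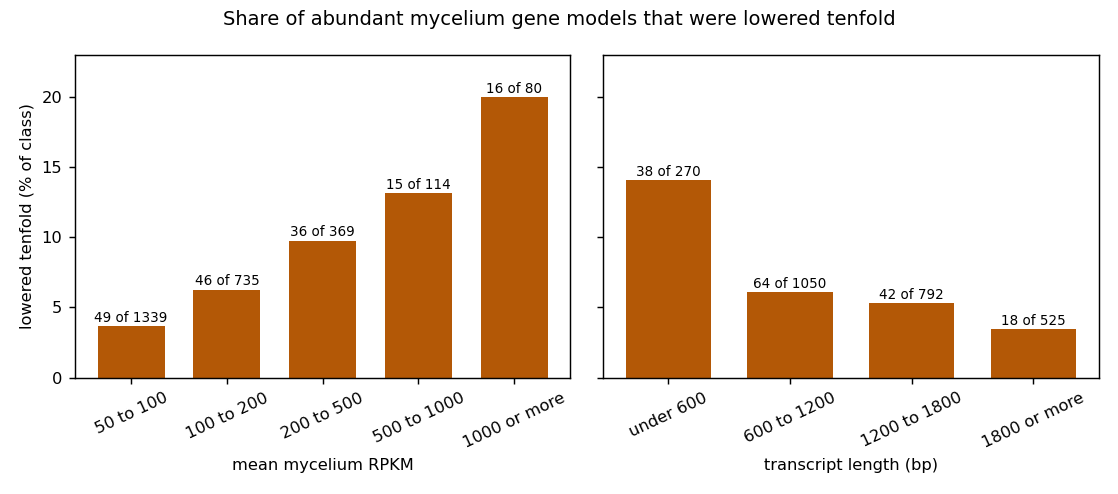
Percent of the abundant mycelium gene models that were members, by mean mycelium RPKM (left) and by transcript length (right), with the number of members and of abundant gene models over each bar. The share climbs from 3.66% to 20.0% with mycelium level and is highest, at 14.1%, for transcripts under 600 bp.

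By the RPKM rule, members were shorter at the median than the other abundant gene models. Their median transcript was 974 bp (quartiles 613 and 1444 bp), against 1210 bp (840 and 1665 bp) over the other 2475 abundant gene models and 1108 bp over all gene models. Of the abundant gene models under 600 bp, 14.1% (38 of 270) were members. The share was 6.10% (64 of 1050) at 600 to under 1200 bp, 5.30% (42 of 792) at 1200 to under 1800 bp and 3.43% (18 of 525) at 1800 bp or more. Over all abundant gene models the median fitted log2 fold change, ectomycorrhiza over mycelium, was -0.99, -0.13, 0.36 and 0.54 in these 4 classes. Short transcripts were thus lower in ectomycorrhiza across the whole abundant set, and short length is not particular to the members. With both limits on TMM-scaled RPKM the median transcript was 1146 bp. Members at least 20-fold lower were longer, with a median transcript of 1130 bp, than all 162. With the 10-fold limit applied after TMM scaling, the shares by length were 4.81%, 2.76%, 3.66% and 2.10%, which no longer fall steadily with length.

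The ectomycorrhiza libraries differed from each other by length. Among members under 600 bp, replicate 1 was above replicate 2 in 32 of 38, with a median log2 ratio (replicate 1 over replicate 2) of 0.81. At 600 to under 1200 bp it was above in 50 of 64, with a median of 0.31. Among members of 1200 to under 1800 bp it was above in 10 of 42, with a median of -0.23, and among those of 1800 bp or more in 8 of 18, with a median of -0.22. Over all abundant gene models the medians were 0.73, 0.43, 0.09 and -0.38 in these 4 classes. Both sets shifted towards replicate 2 with length, and they differed in sign at 1200 to under 1800 bp. Between the mycelium libraries the class medians of the members stayed between -0.05 and 0.06. Across the 162, transcript length and this log2 ratio had a Spearman rho of -0.565 in ectomycorrhiza and 0.081 in mycelium, where all points share the same 2 libraries.

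Leaving out a library changed the set. Without ectomycorrhiza replicate 1 the rule took 243 gene models, and 27.0% of the abundant ones under 600 bp. The 81 additional ones had a median of 620 bp and were a median of 7.03-fold lower in replicate 1, with 67 of them at least 5-fold lower there. Without ectomycorrhiza replicate 2 the rule took 173 gene models, 159 of them members, since 3 had no read in replicate 1. The 14 additional ones had a median of 1852 bp and were 5.24-fold to 9.75-fold lower in replicate 2. Gene models kept out by replicate 1 alone were thus mostly short, and those kept out by replicate 2 alone mostly long. Without mycelium replicate 1 the rule took 199 and without mycelium replicate 2 it took 204, and 25 of 37 and 16 of 42 additional ones were under 50 RPKM in the library left out. The part of the drift between the ectomycorrhiza libraries in the length of the members was not tested.

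**Figure D5:**
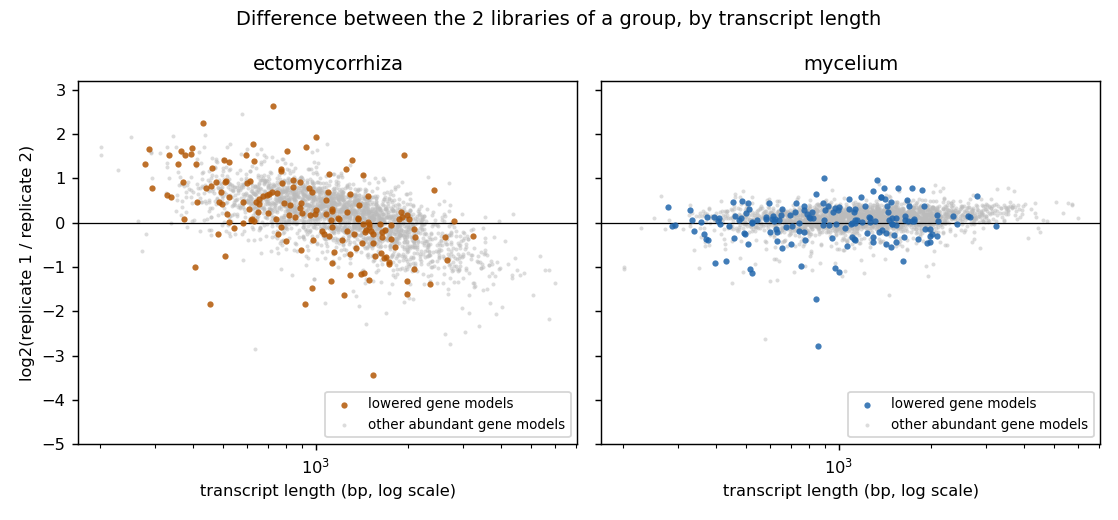
Log2 ratio of replicate 1 over replicate 2 (vertical) by transcript length (bp, log scale) in ectomycorrhiza (left) and mycelium (right), for the members (colour) and the other abundant mycelium gene models (grey); 0.5 reads were added to each count. In ectomycorrhiza the ratios slope down with length in both sets, and in mycelium the members stay near 0 apart from a few, of which 2 lie well under -1.

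The mycelium libraries differed more often in members than over the abundant gene models as a whole. They differed by over 1.5-fold for 19 of the 162 (11.7%), against 2.92% of all 2637 abundant gene models. A difference over 2-fold was found for 7 members (4.32%), against 0.834%, so that 7 of the 22 abundant gene models with such a difference were members. The SD of the log2 ratio between the mycelium libraries was 0.47 over members and 0.24 over the other abundant gene models. Of the 7, 6 were higher in replicate 2 and 1 in replicate 1, and of the 19, 10 were higher in replicate 2. No test was made, since gene models are not replicates and the difference rests on 1 pair of libraries.

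The widest difference was that of the member at rank 49 (857 bp). It had 5.16 and 4.71 RPKM in ectomycorrhiza, and 75.8 and 526 RPKM in mycelium, a 6.94-fold gap between the mycelium libraries. Its lower mycelium value was still 14.7 times its higher ectomycorrhiza value. The next widest (842 bp) had 0.750 and 0.299 RPKM in ectomycorrhiza and 52.1 and 173 RPKM in mycelium. The one that was higher in replicate 1 (894 bp) had 0.707 and 1.13 RPKM in ectomycorrhiza and 555 and 274 RPKM in mycelium. Over all members the mycelium libraries differed by a median of 1.18-fold (quartiles 1.06 and 1.35). For the member at rank 49 the depth of the fall therefore depended on the mycelium library taken.

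Between the ectomycorrhiza libraries 41 members (25.3%) differed by over 2-fold, against 9.82% of the abundant gene models. The members' lower read numbers there go with a wider spread, and the part of counting error was not separated. At the median, replicate 1 was above replicate 2 by 0.18 on the log2 scale over members and by 0.21 over the other abundant gene models.

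Reads shared with other gene models hardly touched the set. In 17 members some reads were shared, in 5 of them over 1%, and the lowest unique share was 77.7%, in a member of 1187 bp with 4.08 and 3.82 RPKM in ectomycorrhiza and 53.3 and 53.0 RPKM in mycelium. Only 1 gene model that met the RPKM limits was left out for shared reads. It (1703 bp) had 41.8% unique reads, 0.371 and 0.444 RPKM in ectomycorrhiza and 72.7 and 64.8 RPKM in mycelium. Another (549 bp) was left out because it had no read in ectomycorrhiza, with 78.7 and 69.3 RPKM in mycelium.

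The limits cut through a continuous range of values. Just inside the fold limit were gene models with folds of 10.01, 10.03 and 10.1, and just outside were folds of 9.95, 9.78 and 9.75. Just inside the mycelium limit the lower RPKM values were 50.3, 50.6 and 52.1, and just outside, with the fold condition met, they were 49.97, 49.9 and 49.8. Among the other abundant gene models, 197 were 5-fold to under 10-fold lower and 649 were 2-fold to under 5-fold lower by the same ratio. By the mirrored limit on RPKM, 4 of the 2637 were at least 10-fold higher in ectomycorrhiza. This count cannot be set against that of the members. The 2637 were picked for high mycelium RPKM, RPKM gives larger falls than TMM scaling, and the mirrored count was not made after TMM scaling.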

How the data were processed

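RNA sequencing reads of 2 ectomycorrhiza and 2 mycelium libraries were counted per gene model by the authors. The deposited tables give raw counts of total and unique gene reads, transcript length and RPKM, per the file headers. The authors' RPKM was recomputed from total reads, length and the library's read sum, and the largest difference was 5e-06. The sources used here do not give the aligner, the counter, strand use or how pine reads were handled. Counts of overlapping or antisense gene models therefore cannot be separated.

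The rule was applied to the deposited RPKM and counts. Total gene reads of 11471 gene models (filterByExpr) entered a fit in edgeR 4.0.16 under R 4.3.3 (TMM, quasi-likelihood, robust, group as only term). Calls used a Benjamini-Hochberg adjusted p under 0.05. The fits were also run on simulated counts with a common dispersion and balanced changes. That run cannot bear on the choice of scaling, since it held no shift in scaling between the groups. Intervals are exact at 95% (scipy 1.17.1); a count of 0 was set to 3 reads per library as its limit. Replicate ratios had 0.5 reads added. The SE of a fitted log2 fold change was taken as its absolute value over the square root of the edgeR F statistic. The smallest p of an exact permutation test (two-sided) on 2 against 2 libraries is 0.333, so no permutation test was made. The p-values of the edgeR fit rest on the spread between these libraries, moderated for each gene model by the spread over all gene models tested. Alternatives included DESeq2 1.42.0 and limma 3.58.1. Gene models named by number are the highest in mycelium and the one with the largest fold. The members and lists were chosen with earlier results of these data known; gene lists by product text could not be built.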

Additional observations from a re-analysis of the deposited data

How the results depend on the processing

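The number of gene models meeting the rule was 162. It became 71 and 64 with both limits on TMM-scaled and RLE-scaled RPKM, 253 and 106 with a mycelium minimum of 25 and 100 RPKM, and 358 and 82 with a fold limit of 5 and 20; each follows from the limits or the scaling. Leaving out 1 library gave 173 to 243. Group means gave 220, unique gene reads 164, and a counting interval of the pooled fold wholly at 10 or above, added after the data were seen, 150. The median transcript was 1146 bp with TMM, 1138 bp with RLE and 1130 bp with the fold limit of 20, and 791 to 1051 bp with 1 library left out; 791 bp came without ectomycorrhiza replicate 1.

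With all 4 libraries kept, each alternative of the test called all 162 lower, except a strict filter. That filter, at least 10 reads in all 4 libraries, kept 94 members and called all 94. These counts are no evidence for the members, which were picked on the same contrast in the same libraries. In fits with 1 library left out, the lone library is assumed to vary like the other group, so their calls are not counted here. The median log2 fold change was -4.80 with total counts alone, -4.52 and -4.79 with limma on log2(RPKM + 1) and log2(RPKM + 0.1), and -4.30 to -3.63 with 1 library left out. In the main fit 3153 of all 11471 gene models tested (27.5%) were called lower. The number was 2915 with RLE scaling, 4377 with upper-quartile scaling, 2618 with DESeq2 and 3223 with limma-voom. It was 6405 with total counts alone, and 6461 and 6136 with the 2 limma fits on log2 RPKM. Without a filter it was 3011, with the strict filter 2247 and with unique gene reads 3143, where the number tested can differ. Gene model 444027 ranged from -5.67 to -4.58 over 16 alternatives and 381186 from -10.9 to -9.59 over 15; the strict filter dropped the second. The replicate numbers pair nothing the labels name, and deviations of libraries with one number had r = -0.213 over gene models. A replicate block left 2723 called lower, and with the numbers crossed, added later, 3553; all 162 members were called in both.

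By summed RPKM the members held 0.309% in ectomycorrhiza and 9.33% in mycelium. On TMM-scaled CPM their median log2 replicate ratio was 0.32 in ectomycorrhiza and -0.11 in mycelium, against 0.04 by RPKM in mycelium. Depth in ectomycorrhiza limits the deepest folds: 12 of the 21 members at 100-fold or more had under 10 reads over both ectomycorrhiza libraries.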
